A study of Mus musculus with 8 samples.

Results

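The genes described here encode the proteins of the cytosolic ribosome, measured in granulosa cells of the mouse ovary, which line the follicle around the oocyte. They were taken from the deposited expression table by symbol: names beginning Rpl, Rps or Rplp followed by a digit, leaving out 10 kinase genes named Rps6k, 1 binding-protein gene whose name ends in bp1 and 3 pseudogene names out of 98 symbols that start alike. This gave 84 of 23235 genes, 52 of the large subunit (the stalk genes Rplp0, Rplp1 and Rplp2 included) and 32 of the small subunit. Among them, 8 are paralogs of another member (Rpl3l, Rpl7l1, Rpl10l, Rpl22l1, Rpl36al, Rpl39l, Rps27l and Rps4y2, the last listed by RefSeq as a synonym of Rps4l), and the other 76 are called the main genes below. In all, 83 of the 84 passed the filter on low values (2 or more libraries with an FPKM of 1 or more), and Rpl3l did not. Rpl10l passed it only through KO libraries, so its differences between genotypes are given as levels and its place in counts between genotypes supports nothing. FPKM is the number of fragments scaled to transcript length and library size. Levels can thus be compared between genes, within the limits of shared sequence given below.

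The study compared wild type (WT) with CNOT6/6L knockout (KO) granulosa cells, named in the labels as a Cnot66l DKO. CNOT6 and CNOT6L are deadenylase subunits of the CCR4-NOT complex, which shortens the poly(A) tails of mRNAs. Cells of each genotype were taken untreated (0 h) or 44 h after PMSG, with 2 libraries in each of the 4 groups. PMSG is a gonadotropin that acts like FSH and drives follicle growth, and libraries taken after it are called PMSG-treated. All 8 libraries came from female mice of strain C57BL/6. The labels gave no age, PMSG dose, targeted allele or Cre driver. Nothing in them says that the replicates were separate animals, and the p-values therefore cover the spread among these libraries alone, perhaps a technical one.

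Ribosomal proteins are made in matched amounts from many unlinked genes and are assembled with ribosomal RNA in the nucleolus before the subunits work in the cytoplasm. Their mRNAs are among the most abundant and stable of a cell, and many begin with a cytosine followed by a run of pyrimidines, the terminal oligopyrimidine (TOP) tract, through which mTORC1 and LARP1 regulate their translation. In the ovary, gonadotropins act on granulosa cell growth and translation in part through the mTORC1 pathway.

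The annotated transcription starts of the members are shown here because the TOP tract is the sequence feature this gene family is known for. RefSeq promoters (build GRCm38.p6, another build than the one named for the expression table, so no coordinates were joined) were found for 63 of the 84 genes. A TOP start was counted where the annotated first base, on the transcript's strand, was C and at least 4 bases after it were each C or T. It was present in 13 of the 63 genes (20.6%) and in 813 of all 27025 genes in the promoter table (3.01%). The 13 were Rpl14, Rpl15, Rpl28, Rpl35, Rpl35a, Rpl38, Rplp2, Rps6, Rps10, Rps15a, Rps18, Rps21 and Rps27. When the best start within 5 bases either side was allowed, 29 of the 63 genes (46.0%) and 21.2% of all genes had such a run, so the share rests on how exactly the first base is annotated. A match describes these letters and is not a measured start. The windows below hold 10 bases before and 20 bases from the annotated first base, 5′ to 3′ on the transcript's strand, with the pyrimidine run in capitals. Genes with a run come first: the genes with the highest and lowest mean level of the main genes (Rpl35 and Rps15a), Rps6, the S6 kinase substrate, and Rps27 and Rps21, described below. The last 4 are members described below for levels that departed from the rest and that have no run at the first base, while Rps27, which also departed, has one.
Rpl35 (chr2:39005112-39005141, minus strand): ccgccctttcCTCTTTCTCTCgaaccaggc
Rps15a (chr7:118116128-118116157, minus strand): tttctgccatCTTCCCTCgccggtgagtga
Rps6 (chr4:86857348-86857377, minus strand): gaagtcgggcCTCTTTTTCgtgacgcctcc
Rps27 (chr3:90213629-90213658, minus strand): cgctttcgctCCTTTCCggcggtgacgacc
Rps21 (chr2:180257369-180257398, plus strand): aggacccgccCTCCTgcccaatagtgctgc
Rpl26 (chr11:68901556-68901585, plus strand): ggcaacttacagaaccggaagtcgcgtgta
Rpl34 (chr3:130730379-130730408, minus strand): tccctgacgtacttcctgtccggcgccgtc
Rpl10l (chr12:66284382-66284411, minus strand): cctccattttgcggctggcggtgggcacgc
Rpl39l (chr16:10170218-10170247, plus strand): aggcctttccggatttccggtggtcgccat

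Before the members, the libraries were checked. FPKM summed to between 675557 and 753216 per library, and the relative depth, read from the steps between low FPKM values, was 0.904 to 1.02 in 7 libraries and 1.25 in PMSG-treated KO replicate 2, where 1 is the median library. Cnot6 was 29.1 and 18.4 FPKM in untreated WT and 11.7 and 12 in untreated KO, and 26.0 and 26.9 in PMSG-treated WT against 26.7 and 17.4 in KO (replicates 1 and 2). The library labelled PMSG-treated KO replicate 1 thus lay within the WT range. Cnot6l was 6.11 and 7.07 FPKM in untreated WT, 4.2 and 2.63 in PMSG-treated WT, 4.69 and 1.97 in untreated KO, and 2.01 and 1.61 in PMSG-treated KO. The library labelled untreated KO replicate 1 lay within the WT range, and the other 3 KO libraries lay below it. The labels do not say which part of either gene was deleted. The 15 steroidogenesis genes, many of which PMSG is known to induce, summed to 1746 to 3189 FPKM in the untreated libraries and to 12376 to 15105 in 3 of those labelled PMSG-treated, but to 3757 in the library labelled PMSG-treated KO replicate 1. Cyp11a1, which starts steroid synthesis from cholesterol, was 129 FPKM there, against 2508 to 4451 in those 3 libraries and 13.5 to 78.3 in the untreated ones. Lhcgr, the LH receptor, was 18.8, against 261 to 308 and 1.41 to 5.33. In both genes that library lay above the untreated libraries and below those 3. Of the 15 genes, 4 lay above their mean over the 8 libraries (log2(FPKM + 1)) there. In those 3 libraries 14 or 15 did, and in the untreated ones 0 to 2. Hsd17b1 was 621 FPKM there, against 515 to 689 and 340 to 444. Akr1c18 was 1.31, against 45.7 to 155 and 1.18 to 8.24. The library thus went against its label in Cnot6, not in Cnot6l, and only in part in the steroidogenesis genes. The members' median difference in each comparison that includes it is also given without it. All 16 granulosa cell markers were above 0 in every library, summing to between 13493 and 30059 FPKM. The highest sum was in the library labelled PMSG-treated KO replicate 1.

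Ribosomal protein transcripts made up 6.61% to 10.4% of all FPKM. The members' share was 9.19% and 8.88% in untreated WT, 7.83% and 8.34% in PMSG-treated WT, 8.80% and 8.65% in untreated KO, and 10.4% and 6.61% in PMSG-treated KO. The 6 other libraries lay between the shares of the pair of PMSG-treated KO libraries. As group means, the share was 9.03% ± 0.220 in untreated WT, 8.09% ± 0.361 in PMSG-treated WT, 8.73% ± 0.109 in untreated KO and 8.51% ± 2.69 in PMSG-treated KO (SD, n = 2). In bulk RNA, fewer cells of a type and less RNA per cell cannot be told apart. Summed FPKM of the large subunit was 1.28 to 1.35 times that of the small subunit over the 8 libraries, and 1.33 to 1.40 times without Rps27.

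The main genes spanned a 170-fold range of mean level. Their median was 616 FPKM, against 10.3 over all genes tested, and 47 members were among the 200 genes with the highest mean. Of the 76 main genes, 73 had a mean of at least 100 FPKM, and 15 members had a mean of at least 1000. The 10 with the highest mean held 32.4% of the members' sum.

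Rpl35, a large subunit protein near the exit of the nascent chain tunnel, had the highest mean. It was 4372 and 3765 FPKM in untreated WT, 3496 and 3961 in PMSG-treated WT, 3667 and 4026 in untreated KO, and 4770 and 2906 in PMSG-treated KO. The highest and the lowest value were both in PMSG-treated KO, and the 6 other libraries lay between them. Next in order were Rps14, of the small subunit platform (mean 2276), Rpl38, known for its part in the translation of Hox mRNAs (2179), Rpl41, the smallest ribosomal protein (2060), and Rps29 (1792). Rpl32, Rps18, Rpl13 and Rps19, the last a gene mutated in Diamond-Blackfan anemia, were among those that followed, at means of 1560, 1541, 1501 and 1439 FPKM. The lowest library of Rpl35 (2906) lay above the highest of Rps14 (2728). Library by library, Rpl35 was above Rps14 and Rps29 above Rpl32 in 8 of 8 libraries. The other neighbours among these named genes kept their order in 5 to 7 of the 8.

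Only 3 main genes had a mean under 100 FPKM. Rps15a, a small subunit protein, was 23.9 and 21.5 in untreated WT, 21.5 and 21.6 in PMSG-treated WT, 24.95 and 22.4 in untreated KO, and 30.4 and 16.2 in PMSG-treated KO. Its pattern across libraries was that of the abundant genes, with the PMSG-treated KO pair at both ends. The others were Rpl22 (mean 48.7), a large subunit protein that binds small viral RNAs, and Rpl30 (66.3), of the large subunit.

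How far such levels can be trusted depends on copies elsewhere in the genome. For the 83 members matched in GENCODE M21, the longest annotated coding sequence was compared with all other transcripts in windows of 75 bases. A median of 82.4% of a gene's windows occurred unchanged in the transcript of another gene, processed pseudogenes included, and 62 of the 83 shared over 50%. Reads from such windows can be assigned to a copy or dropped, and how the authors' counting treated them is not given in the sources used here. For Rps15a 65.8% of windows were shared, for Rpl30 72.3%, for Rps27 100%, and for Rpl22 9.03%. Among the genes with no shared window were Rpl3l, Rpl39l, Rpl41 and Rps3. For Rpl41 this describes an annotated form of 138 coding bases, and shorter forms were not compared.

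**Figure D1:**
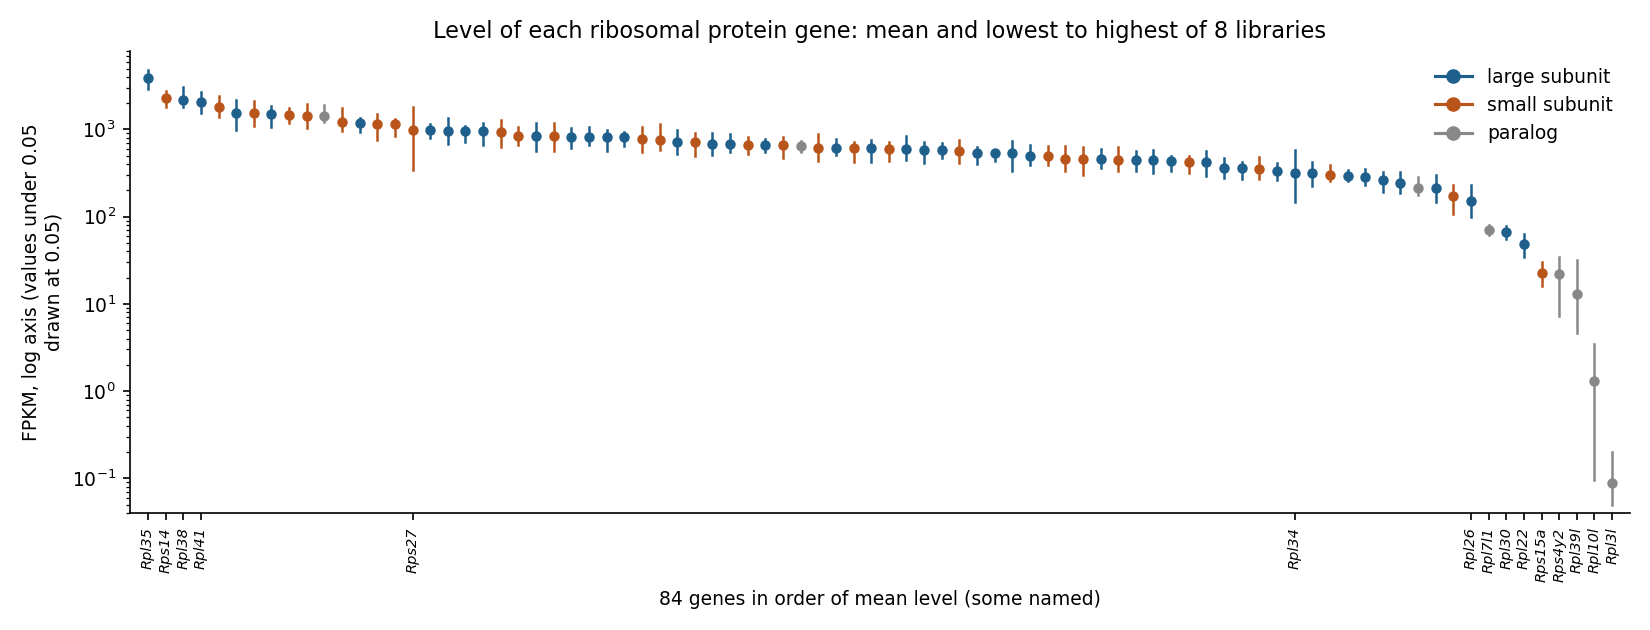
Level of each of the 84 ribosomal protein genes in FPKM (log axis), ordered by mean; points are means and lines run from the lowest to the highest of 8 libraries, coloured by subunit, with paralogs in grey. Of the 76 main genes, 73 lie above 100 FPKM, while Rpl10l and Rpl3l lie at the bottom and Rps27 and Rpl34 have the longest lines among the main genes.

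The members moved together between libraries, and most of that movement was between the PMSG-treated KO libraries. For each gene the deviation from its own mean over the 8 libraries was taken on the log2(FPKM + 1) scale. The median deviation of the 76 main genes was 0.11 and 0.05 in untreated WT, −0.12 and 0.03 in PMSG-treated WT, −0.01 and −0.02 in untreated KO, and 0.39 and −0.41 in PMSG-treated KO. In the library labelled PMSG-treated KO replicate 1, 75 of the 76 were above their mean, and in replicate 2 none was. Over all 13688 genes tested the median deviation of these libraries was −0.06 and −0.04.

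The library labelled PMSG-treated KO replicate 1 was the highest of the 8 and PMSG-treated KO replicate 2 the lowest in 68 of the 83 members tested (81.9%), and in 341 of 13688 genes (2.49%). In PMSG-treated KO the median fold of replicate 1 over replicate 2 was 1.73 across the main genes, on the log2(FPKM + 1) scale, with 75 of 76 higher in replicate 1. Rpl30 was the exception, at 55.6 and 56.2 FPKM. The median ratio of replicate 1 to replicate 2 in FPKM was 1.04 in untreated WT, 0.902 in PMSG-treated WT and 1.01 in untreated KO. The difference between the PMSG-treated KO libraries was therefore larger than that within any other group, and with quantile normalization it was 1.45-fold. Subunits moved alike: the median deviation was 0.36 and −0.39 for the large and 0.44 and −0.44 for the small subunit in these libraries.

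This spread is given by library for 3 genes, chosen as examples after their values were seen. Rplp0, which anchors the stalk that recruits translation factors, was 1062 and 992 FPKM in untreated WT, 937 and 1083 in PMSG-treated WT, 871 and 917 in untreated KO, and 1074 and 725 in PMSG-treated KO. Rps6, whose protein is phosphorylated by S6 kinase, was 742 and 716, 611 and 590, 632 and 689, and 820 and 472 in the same order. Rpl5, which with Rpl11 and 5S rRNA forms the particle that binds MDM2, was 645 and 619, 517 and 492, 625 and 641, and 725 and 413. In all 3 genes PMSG-treated KO replicate 2 was the lowest library. The library labelled PMSG-treated KO replicate 1 was the highest for Rps6 and Rpl5 and lay below PMSG-treated WT replicate 2 for Rplp0.

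The same order of libraries was seen in genes of other roles. Rpl3, which reaches into the peptidyl transferase centre, was 756 and 718 FPKM in untreated WT, 642 and 664 in PMSG-treated WT, 695 and 751 in untreated KO, and 999 and 527 in PMSG-treated KO. Rpl10, one of the last proteins to join the large subunit, was 995 and 928, 863 and 984, 947 and 896, and 1370 and 679 in the same order of groups. Rps19, required for small subunit maturation, was 1448 and 1431, 1294 and 1482, 1517 and 1346, and 1948 and 1043. In each of them the PMSG-treated KO libraries were the highest and the lowest of the 8, and the 6 other libraries lay between them. Rps27a, which is made as a fusion with ubiquitin, was 633 and 620, 570 and 549, 682 and 593, and 886 and 436. Rplp1, an acidic stalk protein, was 877 and 867, 726 and 909, 802 and 738, and 1047 and 613. Both followed the same order at their ends.

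Exceptions among the main genes were few. In 69 of the 76 the library labelled PMSG-treated KO replicate 1 was the highest. In the other 7 the highest library was WT replicate 1 at 0 h (Rpl4, Rpl7, Rps4x and Rps27), PMSG-treated WT replicate 2 (Rplp0 and Rps14) or KO replicate 2 at 0 h (Rpl30). PMSG-treated KO replicate 2 was the lowest library in 72 of the 76, and not in Rpl7a, Rpl26, Rpl30 and Rpl38. Rpl7, of the large subunit, was 584 and 557 FPKM in untreated WT, 528 and 543 in PMSG-treated WT, 527 and 527 in untreated KO, and 554 and 433 in PMSG-treated KO. Its PMSG-treated KO replicate 2 was still the lowest of the 8.

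**Figure D2:**
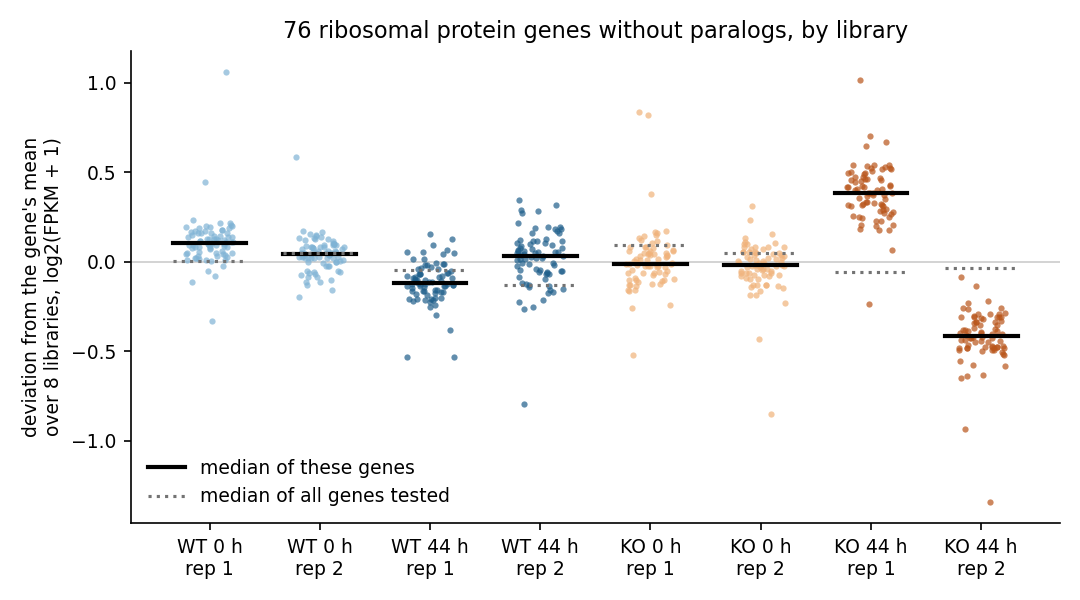
Deviation of each of the 76 main ribosomal protein genes from its own mean over 8 libraries (log2(FPKM + 1)), by library; points are genes, black lines their median and dotted lines the median of all 13688 genes tested. The medians lie between −0.12 and 0.11 in 6 libraries and at 0.39 and −0.41 in PMSG-treated KO.

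Marker lists were read beside this pair, and their part in the result was not tested. Markers of steroidogenesis (15 genes), the cells of the ovarian surface (11) and the oviduct (7) went the opposite way: their median deviations were −0.23, −0.48 and −0.41 in the library labelled PMSG-treated KO replicate 1 and 1.36, 1.34 and 1.29 in replicate 2. The summed FPKM of the surface epithelium markers was 142 and 478 in these libraries, against 122 to 242 in the 6 others, and Wfdc2 was listed at 0 in replicate 1. The oviduct markers summed to 19.1 and 366, and to 23.4 to 392 in the others, with 1 PMSG-treated WT library above both. Endothelial markers (11) deviated by −0.38 and 0.64, with sums of 33.3 and 77.4 against 24.1 to 71.1. Theca and stroma markers (14) deviated by −0.12 and 0.53, with sums of 258 and 378 against 116 to 339. Erythroid markers (5) deviated by −2.01 and −0.41, with sums of 40.7, the lowest of the 8, and 189 against 99.9 to 954. Granulosa cell markers (16) were above their mean in both, at 0.17 and 0.28, with sums of 30059 and 23879 against 13493 to 20959. Immune cell markers (15) were too, at 0.30 and 0.45, with sums of 479 and 507 against 195 to 1083. Oocyte markers (23) deviated by 0.17 and −0.56, with sums of 4666 and 2793 against 1901 to 9605 in the others. The relative depth of these libraries was 1.00 and 1.25.

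The other genes of the ribosome pathway were read from lists of their own. The 4 tested subunit components whose symbols fall outside the naming rule, among them Fau, Rpsa and Gnb2l1, had median deviations of 0.35 and −0.24 in the PMSG-treated KO libraries. Fau, a ubiquitin-like fusion that yields a small subunit protein, was 1037 and 657 FPKM there and 731 to 858 in the other libraries. Translation elongation factors (7 genes) were at 0.13 and −0.26, and ribosome biogenesis factors (67) at 0.17 and −0.27. Other transcripts listed as starting with a TOP tract (19) were at 0.17 and −0.30. This list, called other TOP mRNAs below, includes the non-coding Gas5, Snhg1, Snhg8 and Snhg12. Of its 15 genes with a promoter entry, 4 had a TOP start as counted above, and 8 had one within 5 bases. RNA polymerase I genes (19) were at 0.01 and −0.22. The genes of mTORC1, S6 kinase, LARP1 and MYC (20) were at −0.01 and −0.05, near the median of all genes.

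**Figure D3:**
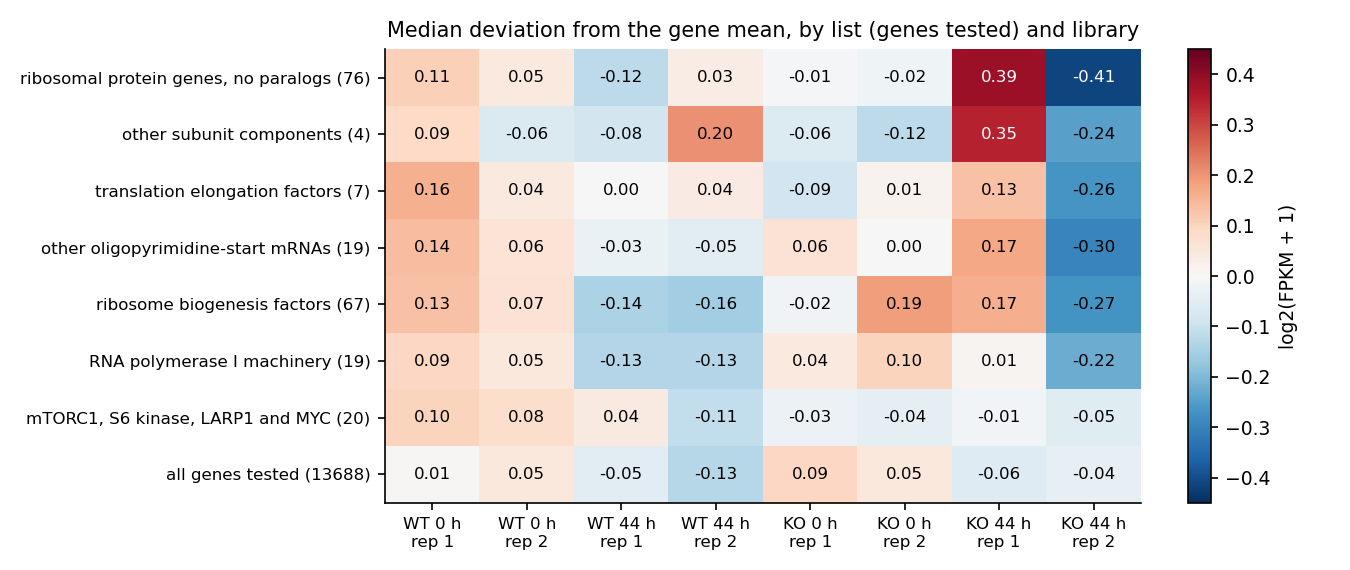
Median deviation from the gene mean (log2(FPKM + 1)) for each list, with the number of genes tested in parentheses, in each of the 8 libraries; red is above and blue below the mean. The 76 main ribosomal protein genes (0.39 and −0.41) and the other subunit components (0.35 and −0.24) show the widest gaps between the PMSG-treated KO libraries among the ribosome and mTORC1 lists drawn, and the mTORC1 list (−0.01 and −0.05) the narrowest. The steroidogenesis and marker lists, some with wider gaps, are not drawn.

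In untreated cells, no ribosomal protein mRNA passed the test between genotypes, and most had a slightly lower mean in KO than in WT. The median difference over the 83 members was −0.08 on the log2(FPKM + 1) scale, where the median standard error (SE) of a member was 0.26, and 67 were lower and 16 higher. Over all genes the median was 0.03, with 54.7% higher. Limma called 0 members at an adjusted p under 0.05, against 0.0365% of all genes, and 2 had an unadjusted p under 0.05, against 9.69%. These were Rpl26 and Rpl10l. The median deviation of the members was 0.10 and 0.04 in the WT libraries and −0.01 and −0.01 in the KO libraries. With the library labelled untreated KO replicate 1 left out the median difference was −0.08, with 66 of 83 lower. In 40 members both KO libraries lay below both WT libraries, against 19.1% of all genes, and in 6 both lay above, against 27.3%. The direction depended on scaling: with quantile normalization 41 of the 83 members were higher and the median was 0.00, and with median-of-ratios scaling 5 were higher and the median was −0.16. Over all genes the medians were then −0.04, with 44.7% higher, and −0.03, with 46.0% higher.

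Among the members lower in untreated KO, Rpl26, a large subunit protein at the tunnel exit that also binds the p53 mRNA, stood furthest from 0. It was 196 and 217 FPKM in WT and 99.9 and 106 in KO, a difference of −0.99 (SE 0.26, limma adjusted p = 0.385). Rpl15, of the large subunit, stood at 488 and 461 (WT) against 412 and 395 (KO) (−0.23, SE 0.22, limma adjusted p = 0.820). The groups did not overlap in these genes, and in Rpl15 the gap was about the size of its error. Rpl34, of the large subunit, went the other way, at 227 and 291 FPKM in WT and 511 and 354 in KO (0.73, SE 0.59, limma adjusted p = 0.780).

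In the same comparison the pathway lists gave few low p-values. Elongation factors were lower in 7 of 7 genes (median −0.19), other TOP mRNAs in 14 of 19 (−0.08), biogenesis factors in 37 of 67 (−0.03) and the mTORC1 and MYC list in 13 of 20 (−0.05). Limma called 0 members of these lists, against 0.0365% of all genes. An unadjusted p under 0.05 was seen in 1 of them, the biogenesis kinase gene Riok1, against 9.69% of all genes. Riok1 was 39.0 and 52.3 FPKM in WT and 66.9 and 64.1 in KO. Oocyte markers were higher in KO in 23 of 23 genes, with sums of 3436 and 5906 FPKM in WT and 9605 and 8123 in KO, and their part in these differences was not tested.

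In WT, no ribosomal protein mRNA passed the test between 44 h and 0 h, and the members' median was close to that of all genes without further scaling. The median difference of the members was −0.12 (median SE 0.26) and that of all genes −0.13. In all, 68 members were lower and 15 higher, while 38.1% of all genes were higher. Limma called 0 members, against 0.0804% of all genes, and 2, Rpl10l and Rpl26, had an unadjusted p under 0.05, against 24.1%. Both 44 h libraries lay below both 0 h libraries in 37 members, against 40.6% of all genes, and above them in 7, against 22.5%. With median-of-ratios scaling, which moved the median of all genes from −0.13 to −0.01, 48 of the 83 members were higher and the median was 0.02. With quantile normalization 7 were higher and the median was −0.24, against −0.06 over all genes, of which 43.9% were higher.

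Rpl26 was 196 and 217 FPKM at 0 h and 99.1 and 131 at 44 h in WT (−0.85, SE 0.26, limma adjusted p = 0.130). It was the 1 member that passed when limma used only the 4 WT libraries (adjusted p = 0.0498), where 6.9% of all genes were called. It was also the 1 member called over 7 libraries without either PMSG-treated KO library (adjusted p = 0.031 in both limma fits), where 10% and 10.1% of all genes were called. All these fits compared the same 4 WT libraries and gave the same difference for Rpl26. Only the estimate of the spread changed, so the calls are no separate support. Rps4x, the X-linked small subunit gene, was 710 and 674 FPKM at 0 h and 520 and 571 at 44 h (−0.34, SE 0.24, limma adjusted p = 0.405). Rps7, of the small subunit, was 684 and 672 and then 554 and 514 (−0.34, SE 0.24, limma adjusted p = 0.412). The libraries of both genes did not overlap between the times. The 7 members above 0 h without overlap were Rpl22l1, Rpl27, Rpl30, Rpl39, Rpl41, Rps12 and Rps21. Rps21, of the small subunit, was 478 and 443 FPKM at 0 h and 539 and 566 at 44 h (0.26, SE 0.24, limma adjusted p = 0.539).

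Ribosome biogenesis factors, which process ribosomal RNA and assemble the subunits, had a median of −0.26 in WT, with 57 of 67 genes lower, against 8474 of 13688 genes tested. Limma called 0 of them, with 13 at an unadjusted p under 0.05 (24.1% of all genes). Bms1, a GTPase of small subunit assembly, was 27.6 and 38.9 FPKM at 0 h and 19.7 and 15.4 at 44 h, and Nol10, a nucleolar protein, was 11.9 and 9.48 and then 7.04 and 5.78. RNA polymerase I genes had a median of −0.22 (14 of 19 lower) and other TOP mRNAs of −0.18 (14 of 19 lower), with 4 and 1 genes at an unadjusted p under 0.05 (again 24.1% of all genes) and 0 called by limma. Npm1, a nucleolar chaperone whose mRNA has a TOP tract, was 520 and 484 FPKM at 0 h and 370 and 307 at 44 h. Oocyte markers were lower at 44 h in 23 of 23 genes (sums of 3436 and 5906 FPKM, then 1973 and 1901), and their part in these differences was not tested.

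In KO, the mean difference between 44 h and 0 h hid 44 h libraries that lay on opposite sides of the untreated ones. The median over the 83 members was −0.01 (median SE 0.26), with 36 higher and 47 lower, and −0.11 over all genes, with 39.3% higher. Limma called 0 members, against 0.139% of all genes, and 3, Rpl10l, Rpl26 and Rpl39l, had an unadjusted p under 0.05, against 21.1%. Both 44 h libraries lay above both 0 h libraries in 1 member, Rpl26, against 14.3% of all genes, and below them in 3, Rpl10l, Rpl30 and Rpl39l, against 34.1%. With median-of-ratios scaling, which moved the median of all genes to 0.03, 75 members were higher (median 0.15), and with quantile normalization 15 were (median −0.13). The median of all genes with quantile normalization was −0.02, with 48.2% higher.

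Each 44 h library alone gave a different answer. Without the library labelled PMSG-treated KO replicate 1, 81 of the 83 members were lower at 44 h in KO (median −0.40) and limma called 5 of them, against 8.99% of all genes: Rpl5, Rpl32, Rpl34, Rpl36a and Rpl39l. Rpl32, of the large subunit, was 1616 and 1555 FPKM at 0 h and 978 in replicate 2 at 44 h (−0.70, SE 0.16, limma adjusted p = 0.0474). Rpl36a, also of the large subunit, was 522 and 550 and then 330 (−0.70, SE 0.14, limma adjusted p = 0.0363). Without replicate 2, 78 members were higher (median 0.39), and limma called 0 of them, against 0.237% of all genes, with 37 at an unadjusted p under 0.05, against 21.6%. A single library then stood for its group and was assumed to vary like the others. When the library labelled untreated KO replicate 1 was left out, 42 members were higher and 41 lower (median 0.0017), and limma called 0, against 0.052% of all genes, with 1 at an unadjusted p under 0.05, against 12.9%.

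Among the pathway lists over time in KO, limma called 0 genes. Biogenesis factors were lower in 52 of 67 genes (median −0.16), with 6 at an unadjusted p under 0.05 (21.1% of all genes), and RNA polymerase I genes in 13 of 19 (median −0.22), with 3. Elongation factors were lower in 3 of 7 (median 0.01), and other TOP mRNAs in 13 of 19 (median −0.07). Without the library labelled PMSG-treated KO replicate 1 the medians were −0.32 for biogenesis factors, −0.33 for RNA polymerase I genes, −0.24 for elongation factors and −0.32 for other TOP mRNAs. Without replicate 2 they were 0.03, −0.09, 0.15 and 0.17. Deptor, an inhibitor subunit of mTORC1, had the smallest adjusted p among the genes of the ribosome and mTORC1 lists. It was 45.5 and 43.4 FPKM in untreated KO and 26.3 and 26.9 in PMSG-treated KO (limma adjusted p = 0.0971), and 39.1 and 39.7 and then 38.9 and 32.4 in WT.

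At 44 h the members had no common direction between genotypes. The median over the 83 members was 0.04 (median SE 0.26), with 50 higher in KO and 33 lower, and 0.05 over all genes, with 55.5% higher. Limma called 0 members, against 0.0219% of all genes, and 3, Rpl10l, Rpl26 and Rpl30, had an unadjusted p under 0.05, against 9.79%. Both KO libraries lay above both WT libraries in 2 members, Rpl10l and Rpl26, against 23.9% of all genes, and below them in 1, Rpl30, against 15.1%. With median-of-ratios scaling 34 members were higher (median −0.02), and with quantile normalization 70 were (median 0.10). Over all genes the medians were then −0.01, with 49.3% higher, and −0.001, with 49.8% higher.

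Without the library labelled PMSG-treated KO replicate 1, 4 of the 83 members were higher than in WT (median −0.34), and limma called 0, against 0.0441% of all genes, with 23 at an unadjusted p under 0.05, against 7.05%. Without KO replicate 2, 81 members were higher (median 0.43) and limma called 4, against 6.21% of all genes: Rpl26, Rps23, Rps25 and Rpl10l, the last a gene that passed the filter only through KO libraries. Rps25, a small subunit protein used by internal ribosome entry sites, was 721 and 612 FPKM in WT and 1154 in the library labelled PMSG-treated KO replicate 1 (0.80, SE 0.17, limma adjusted p = 0.0435). Rps23, of the decoding centre, was 418 and 400 in WT and 650 in that library (0.67, SE 0.14, limma adjusted p = 0.0467). In KO replicate 2, Rps25 was 577 FPKM and Rps23 was 333, both below WT. Among the pathway lists, limma called 0 genes at 44 h. Biogenesis factors were higher in KO in 46 of 67 genes (median 0.11), with 2 at an unadjusted p under 0.05 (9.79% of all genes). Without the library labelled PMSG-treated KO replicate 1, 19 of the 67 were higher (median −0.14), and without replicate 2, 52 were (median 0.32). Elongation factors were lower in 5 of 7 (median −0.10, and −0.29 and 0.07 without each of these libraries), with 1 at an unadjusted p under 0.05, Eef2, the factor that moves the ribosome along the mRNA. Eef2 was 189 and 203 FPKM in WT and 147 and 150 in KO.

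The change with PMSG was also compared between genotypes. The median interaction (KO change minus WT change) was 0.11 over the 83 members (median SE 0.37), with 70 positive. Over all genes it was −0.01, with 49.2% positive. Limma called 0 members, against 0.0438% of all genes, and 1, Rpl26, had an unadjusted p under 0.05, against 1.82%. With quantile normalization 69 members were positive (median 0.11), against 53.5% of all genes. With median-of-ratios scaling 74 were (median 0.12), against 51.5% of all genes. The sign again rested on the PMSG-treated KO libraries: 3 members were positive without the library labelled replicate 1 (median −0.28) and 80 without replicate 2 (median 0.49).

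**Figure D4:**
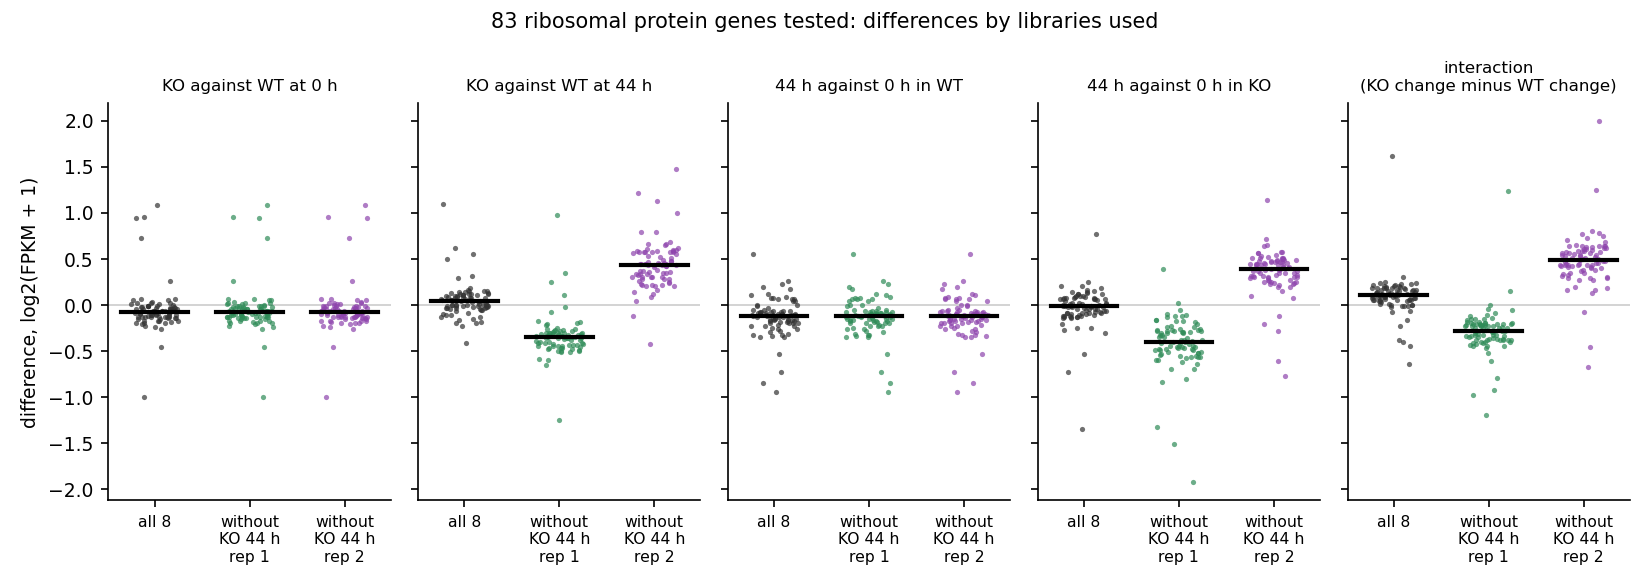
Differences of the 83 ribosomal protein genes tested (log2(FPKM + 1)) in the 5 comparisons, with all 8 libraries and without each PMSG-treated KO library; points are genes and lines their medians. In the KO comparison over time the medians are −0.01, −0.40 and 0.39, and in KO against PMSG-treated WT they are 0.04, −0.34 and 0.43. The comparisons at 0 h and over time in WT contain no PMSG-treated KO library, so their medians cannot move.

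A few members did not follow the common pattern. After the median deviation of each library was taken off, 71 of the 76 main genes had an SD of their own deviation under 0.2 (log2) over the 8 libraries, with a median of 0.10. The 5 others were Rps27 (0.72), Rpl34 (0.58), Rpl26 (0.42), Rpl30 (0.30) and Rps12 (0.21). Among the paralogs it was 0.79 for Rpl39l, 0.72 for Rpl10l, 0.71 for Rps4y2 and 0.30 for Rpl7l1.

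Rpl26 differed from the block by genotype and time. It was 196 and 217 FPKM in untreated WT, 99.1 and 131 in PMSG-treated WT, 99.9 and 106 in untreated KO, and 229 and 136 in PMSG-treated KO. The WT libraries were high at 0 h and lower at 44 h, and the KO libraries were low at 0 h and higher at 44 h, with no overlap within either genotype. Such opposite movement was seen in 2 members, Rpl26 and Rpl30, against 1.09% of all genes. The difference between genotypes was 0.62 at 44 h (SE 0.26, limma adjusted p = 0.510), the difference over time in KO was 0.77 (SE 0.26, limma adjusted p = 0.167), and the interaction was 1.62 (SE 0.37, limma adjusted p = 1.00). Without the library labelled PMSG-treated KO replicate 1 the interaction was 1.24, and without replicate 2 it was 1.99. In the same order the difference between genotypes at 44 h was 0.25 and 1.00, and that over time in KO was 0.39 and 1.15. The sizes at 44 h thus rested largely on the library labelled replicate 1. Of its coding windows 71.2% were shared with transcripts of 5 other genes.

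Rpl30 was the most even main gene between the PMSG-treated KO libraries. It was 71.1 and 61.3 FPKM in untreated WT, 73.4 and 76.4 in PMSG-treated WT, 58.8 and 77.6 in untreated KO, and 55.6 and 56.2 in PMSG-treated KO. The PMSG-treated KO libraries were the lowest of the 8. The difference from PMSG-treated WT was −0.41 (SE 0.17, limma adjusted p = 0.509), and over time in KO it was −0.27 (SE 0.17, limma adjusted p = 0.414).

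Rps27, a zinc-finger protein of the small subunit, and Rpl34 varied most between replicates of one group. Rps27 was 1798 and 753 FPKM in untreated WT, 596 and 1095 in PMSG-treated WT, 1521 and 477 in untreated KO, and 1404 and 340 in PMSG-treated KO. Replicate 1 was above replicate 2 in 3 groups and below it in PMSG-treated WT, and all groups overlapped. Rpl34 was 227 and 291, 261 and 164, 511 and 354, and 577 and 149 in the same order, and in PMSG-treated KO its libraries lay above and below all the others. Every coding window of Rps27 and 60.6% of those of Rpl34 occurred in another transcript.

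**Figure D5:**
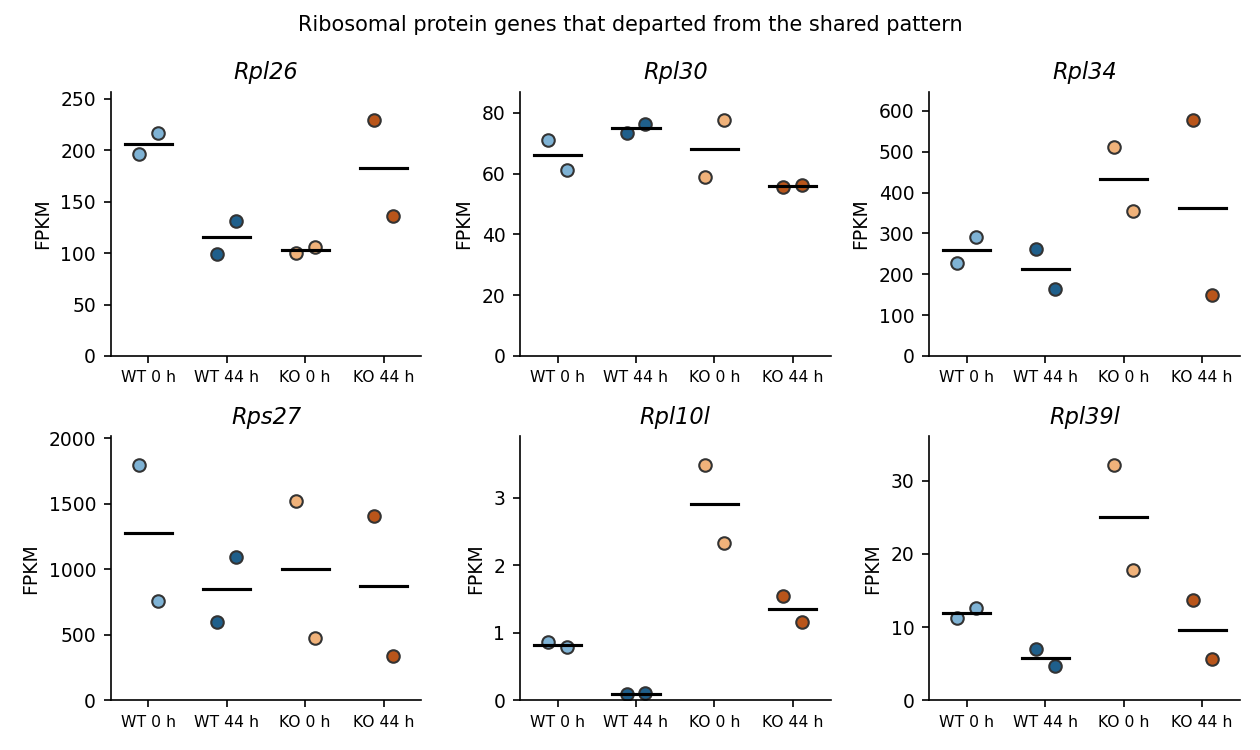
FPKM of 6 members that departed from the shared pattern, by group; points are libraries (replicate 1 left, replicate 2 right) and lines group means of n = 2. Rpl26 is lower at 44 h in WT and higher at 44 h in KO, Rpl30 has its lowest libraries in PMSG-treated KO, Rps27 and Rpl34 are spread within groups, and Rpl10l and Rpl39l are highest in untreated KO.

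The paralogs differed widely in how much they added to their parents. Rpl22l1, which Rpl22 is known to repress, was the more abundant of its pair in every library, at 368% to 528% of the FPKM of Rpl22. It was 196 and 195 FPKM in untreated WT, 247 and 203 in PMSG-treated WT, 199 and 211 in untreated KO, and 285 and 175 in PMSG-treated KO. Rps27l, a p53 target, was 1234 to 1887 FPKM, or 78.9% to 363% of Rps27, a range set mostly by Rps27 itself. Rpl36al was 101% to 172% of Rpl36a, at 553 to 741 FPKM, and lower in untreated KO without overlap (−0.18, SE 0.19, limma adjusted p = 0.850). Every coding window of Rpl36al and of Rpl36a, and 72.3% of those of Rpl22l1, occurred in another transcript, which limits these ratios. Rpl7l1, a nucleolar relative of Rpl7, was 11.2% to 16.7% of it, at 61.8 to 79.4 FPKM.

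The 4 other paralogs were minor in these cells. Rpl3l, known from heart and skeletal muscle, was at most 0.199 FPKM and listed at 0 in 2 libraries. Rps4y2 was 1.01% to 5.94% of Rps4x, at 7.18 and 23.5 FPKM in untreated WT and 34.5 and 20.2 in untreated KO (0.95, SE 0.53, limma adjusted p = 0.637). Its groups overlapped.

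Rpl10l and Rpl39l, paralogs of X-linked genes that are best known from male germ cells, had higher mean levels in untreated KO than in untreated WT and lower ones at 44 h in both genotypes. With all 8 libraries neither passed a test. Rpl10l was 0.861 and 0.781 FPKM in untreated WT, 0.0949 and 0.1 in PMSG-treated WT, 3.49 and 2.33 in untreated KO, and 1.55 and 1.16 in PMSG-treated KO. No 2 groups overlapped. All 4 WT libraries lay under 1 FPKM and all 4 KO libraries above it, so the gene passed the filter through KO alone and its genotype difference is no independent test. Over time the difference was −0.73 in WT (limma adjusted p = 0.127) and −0.72 in KO (limma adjusted p = 0.147). At levels near 1 FPKM these differences on the log2(FPKM + 1) scale understate the ratio of the levels.

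Rpl39l was 11.3 and 12.6 FPKM in untreated WT, 6.98 and 4.64 in PMSG-treated WT, 32.2 and 17.8 in untreated KO, and 13.7 and 5.60 in PMSG-treated KO. Both untreated KO libraries were above all others, and the PMSG-treated KO libraries overlapped both WT groups. The difference was 0.95 in untreated KO (SE 0.43, limma adjusted p = 0.539), −0.95 over time in WT (SE 0.43, limma adjusted p = 0.231) and −1.34 over time in KO (SE 0.43, limma adjusted p = 0.152). Without the library labelled PMSG-treated KO replicate 1 the last was −1.92 and called (limma adjusted p = 0.0308). Their parents Rpl10 and Rpl39 were 679 to 1370 and 443 to 832 FPKM, with PMSG-treated KO at both ends. Oocyte markers were also highest in untreated KO and lowest in PMSG-treated WT, with summed FPKM of 3436 and 5906 in untreated WT, 1973 and 1901 in PMSG-treated WT, 9605 and 8123 in untreated KO and 4666 and 2793 in PMSG-treated KO. None of the 23 markers was listed at 0 in any library, and their part in the levels of Rpl10l and Rpl39l was not tested. Of the coding windows of Rpl10l 0.528%, and of those of Rpl39l none, occurred in another transcript.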

How the data were processed

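The authors deposited 1 table of FPKM values with 23235 gene symbols and a column for each of the 8 libraries, per the file headers. Per the submitters' processing notes, the tools were TopHat2 2.1.1 and Cufflinks 2.2.1 and the build mm9, without roles. Which annotation and filters were used is not given in the sources used here. Both a TruSeq and a TruePrep kit were named per the labels' protocols. Read totals are unknown, and FPKM are not counts, so no count model was used.

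Values were analysed as log2(FPKM + 1), which understates the change of low genes. The 13688 genes that reached an FPKM of 1 in 2 or more libraries were fitted with limma 3.58.1 in R 4.3.3, with a mean per group over all 8 libraries and empirical Bayes with a mean-variance trend. P-values were two-sided and adjusted within each comparison by Benjamini-Hochberg over the 13688 genes, with calls at an adjusted p under 0.05. Scripts were tested on simulated data. The correlations of same-numbered libraries' deviations between groups were −0.113 to −0.007, so no shift shared by replicate number was seen over all genes. These values cannot exclude an animal or a batch shared by same-numbered libraries, on which the labels are silent. The main fit used no pairing.

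The members and lists were chosen with earlier results of these data known. The genes named were, in each comparison, members with the smallest p (up to 10 in each direction), every called member, the highest and lowest by level, paralogs with their parents, and up to 4 members of each pathway list. Those printed with values under single alternatives, those counted without overlap, and Rplp0, Rpl5 and Rps6 as examples, were chosen after their values were seen. Some genes the rule could name are not reported here. Alternatives covered the pseudocount, the filter, scaling, short RNA entries, a replicate block, the samples in the fit, leaving out each library and robust empirical Bayes. Scalings of the replicate ratio and the subunit ratio without Rps27 were added after seeing the data.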

Additional observations from a re-analysis of the deposited data

Results flagged for a closer look

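In 2 members the libraries of the genotypes moved in opposite directions over time, with no overlap between 0 h and 44 h, as they did in 1.09% of all 13688 genes tested. Rpl26 was lower at 44 h in both WT libraries and higher in both KO libraries, and the interaction was 1.62 (log2(FPKM + 1), SE 0.37, limma adjusted p = 1.00). Rpl30 was higher at 44 h in both WT libraries and lower in both KO libraries, with an interaction of −0.45 (SE 0.24, limma adjusted p = 1.00). Neither difference passed the test over all genes.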

How the results depend on the processing

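No limma call of a member was made with all 8 libraries, and none was added by the pseudocount of 0.1, either filter, either scaling, leaving out short RNA entries, robust empirical Bayes or the replicate block (0 members called in each comparison). A replicate block with the KO 44 h numbers exchanged also called 0 members. Fits over only the groups compared called 1 member, Rpl26, over time in WT, and 0 elsewhere. Leaving out each library in turn gave 0 members called at 0 h between genotypes, 0 to 4 at 44 h, 0 to 1 over time in WT, 0 to 5 over time in KO and 0 to 1 for the interaction. The median difference ranged from −0.11 to −0.051, −0.34 to 0.43, −0.18 to −0.05, −0.40 to 0.39 and −0.28 to 0.49 in the same order. With quantile normalization the median was 0.00 at 0 h and −0.24 over time in WT. With median-of-ratios scaling it was −0.16 at 0 h, and it changed sign at 44 h between genotypes (−0.021), over time in WT (0.024) and over time in KO (0.15). The cause was not tested. The fold between the PMSG-treated KO libraries was 1.45 with quantile normalization and 1.78 with median-of-ratios scaling. The members' share of FPKM without short RNA entries was 9.86% and 9.47% in untreated WT, 8.34% and 8.77% in PMSG-treated WT, 9.23% and 9.09% in untreated KO, and 10.9% and 6.91% in PMSG-treated KO. Without the 100 other genes with the highest mean it was 11.7% and 11.2%, 10.1% and 10.8%, and 10.8% and 10.8% in these groups, and 13.4% and 8.58% in PMSG-treated KO. TOP starts within 5 bases were found in 46.0% of the 63 members with a promoter entry and 21.2% of all genes. Of 20 gene differences, 0 changed sign in 198 values from fits with another setting, of which 1 was called. None did in 160 values from fits with a library left out. Many of these values could not change sign, so the counts say little. A replicate block, robust empirical Bayes, a fit of only the groups compared, or leaving out a library of another group left a difference as it was. Leaving out 1 library cannot turn groups that do not overlap. With 2 libraries per group and unknown read totals, small differences of low genes cannot be resolved.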
